A study of Mus musculus with 6 samples.

Results

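The 36 genes described here encode the enzymes, carriers and regulators of fatty acid oxidation, and they were picked by symbol from the 55385 genes measured in mammary tumors of NeuT/ATTAC mice. All 36 were found, and all 36 had enough reads to be tested. They were divided by role into 7 genes of the carnitine shuttle, 4 acyl-CoA dehydrogenases, 5 genes of hydration, oxidation and thiolysis, 3 of electron transfer, 5 of double-bond handling, 7 peroxisomal genes and 5 PPAR-responsive genes and regulators. RNA-seq had been done on 3 Control and 3 DMHCA libraries, which are described as tumors from different mice. Mice of both groups carried an activated rat ErbB2[V664E] transgene driven by the MMTV promoter in mammary epithelium, and an FKBPv-caspase-8 fusion driven by the FABP4 promoter, which is active in fat cells. The dimerizer AP20187, which switches on the caspase, was injected at 0.4 mg/kg 3 times per week from 6 weeks of age, while DMHCA, a steroid that activates the LXR nuclear receptors, formed 0.05% of the diet (100 mg/kg) of the treated mice from 8 weeks of age. The label of the Control samples can be read as AP20187 in its vehicle or as vehicle alone, and the labels give the tissue as mammary gland with fibrosis, whereas the study's text speaks of tumors.

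Long-chain fatty acids enter mitochondria as carnitine esters, which are made by the carnitine palmitoyltransferases and carried across the inner membrane. In the matrix each round of beta-oxidation removes an acetyl unit by dehydrogenation, hydration, a further dehydrogenation and thiolysis, while peroxisomes shorten very long and branched chains. In many tissues the pathway is switched on by the PPAR receptors with the coactivator PGC-1alpha, whereas LXR is known for switching on fatty acid synthesis and cholesterol export.

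Libraries held 46358654 to 63420620 expected counts, that is, reads per gene as estimated by the authors' counting tool. DMHCA libraries 1 and 3 were nearly identical, with a biological coefficient of variation (the spread between libraries beyond counting noise) of 0.0327 against 0.376 to 0.579 in the other 5 pairs of libraries from the same group. They were summed and counted as 1 sample, which left 3 Control and 2 DMHCA samples, so that p-values measure the spread between these samples only. Of 9 LXR target genes 8 were higher in the DMHCA samples, against 48.0% of all genes. At an unadjusted p under 0.05, 5 were higher (Scd1, Srebf1, Scd2, Abca1 and Mylip) and 1, Nr1h3, lower, against 3.53% and 4.08% of all genes. All 8 adipocyte marker genes were lower, 7 of them at that threshold, and their summed TPM (the deposited level per gene length, scaled to the same sum in each library) was 315, 137 and 1292 in Control 1, 2 and 3 and 82.0 to 86.2 in the DMHCA libraries. Control 3 also held the most B cell markers (251 TPM against 0.94 to 29.3 in the other controls and 1.70 to 2.23 with DMHCA) and the most T cell markers (129 TPM). Markers of mammary epithelium summed to 3458 to 4232 TPM in Control and 4919 to 5159 TPM in DMHCA libraries, those of skeletal muscle to 808 to 1373 and 323 to 1204, those of fibroblasts to 328 to 1288 and 643 to 670, those of macrophages to 382 to 494 and 334 to 419, and those of endothelium to 26.7 to 45.2 and 44.2 to 50.7. Of the brown adipocyte markers 1 of 3 could be tested, and the list summed to 5.51 to 8.97 TPM in Control and 2.33 to 39.0 TPM in DMHCA libraries, while hepatocyte markers summed to at most 1.37 TPM. In such bulk samples fewer cells of a type and less RNA per cell cannot be told apart.

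In 30 of the 36 fatty acid oxidation genes the Control and DMHCA samples overlapped in normalized counts. By the quasi-likelihood F-test of edgeR on counts, 0 of 36 had an adjusted p under 0.05, as did 0% of the 19427 genes tested, and no gene had an adjusted p below 0.644. At an unadjusted p under 0.05 there was 1 gene, Echs1, or 2.78% of the 36, against 7.61% of all genes tested. There were 20 members that were higher and 16 that were lower, with a median log2 fold change of 0.05 against -0.03 for all genes. In 3 members (Echs1, Eci2 and Pex11a) both DMHCA samples lay above every Control sample, against 13.8% of all genes, and in 3 (Cpt1c, Acadm and Acadvl) both lay below, against 12.2%. Neither share of the members, 8.33% each, was above that of all genes. DESeq2 on the 6 libraries taken as separate samples called 1 member, Echs1, at an adjusted p under 0.05, and 3.9% of the 21540 genes it tested.

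The size of the changes that these samples leave possible differed between members. For 14 of 36 genes the 95% interval of the fold change lay within a 2-fold change in either direction, and for 26 within a 3-fold change. The estimate itself was under 0.5 on the log2 scale, in either direction, for 26 genes and at least 1 for 5 genes (Cpt1c, Acox2, Pex11a, Pdk4 and Angptl4). Only Pex11a among these 5 was higher with DMHCA.

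**Figure D1:**
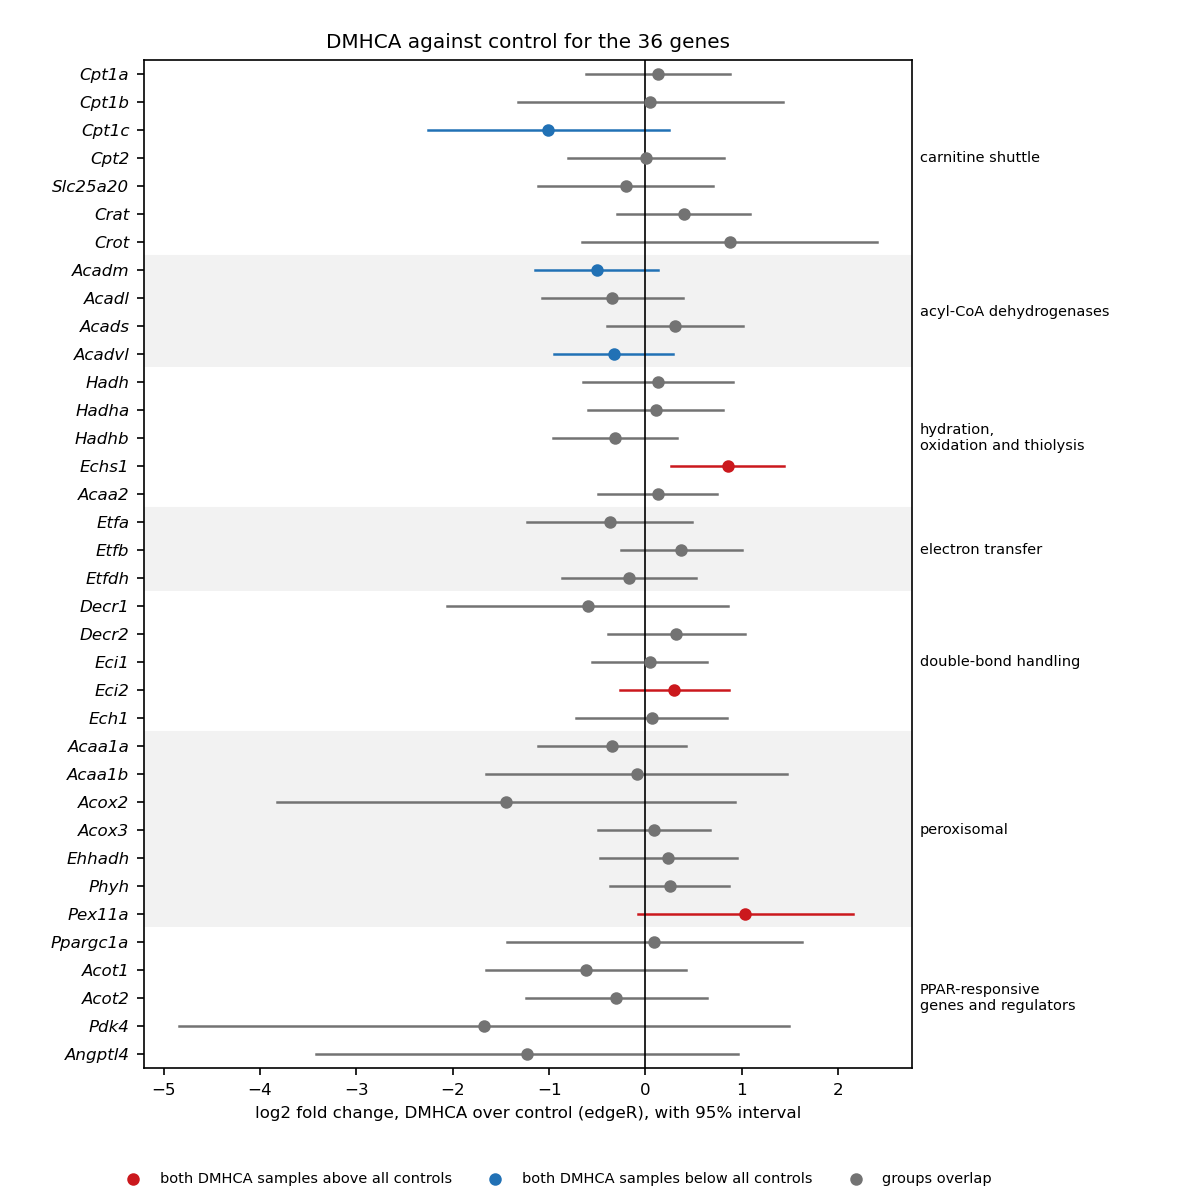
Log2 fold change of DMHCA over Control for each of the 36 genes, grouped by role, with lines for the 95% interval from edgeR (3 Control and 2 DMHCA samples). The interval of Echs1, from 0.27 to 1.44, is the only one that does not reach 0, and those of Pdk4, Acox2 and Angptl4 are the widest.

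Echs1, which encodes the short-chain enoyl-CoA hydratase of the mitochondrial matrix, had the smallest p of the 36. Its normalized counts (counts scaled to a common library size) were 5360, 4176 and 5020 in Control 1, 2 and 3, and 9060 and 8467 in the DMHCA sample summed from libraries 1 and 3 and in DMHCA 2. Both DMHCA samples were thus above all controls, and by a margin wider than the spread within either group. The log2 fold change was 0.85 ± 0.24 (SE), or 1.81-fold, with an unadjusted p of 0.0113 and an adjusted p of 0.644 by edgeR. DESeq2 gave an adjusted p of 0.0301 on the 6 libraries and 0.190 on the 5 samples. On the scale of TPM, the level was 65.2 ± 16.9 (SD, n = 3) in Control and 135 ± 3.22 (SD, n = 2) in DMHCA samples. Leaving out each library in turn kept the log2 fold change between 0.74 and 0.92.

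Echs1 lies on the minus strand of chromosome 7 (GRCm38, chr7:140105710-140116476). It shares 142 of its 8286 exonic bases (1.71%) with Paox, a polyamine oxidase gene on the other strand. Paox had 947, 833 and 853 normalized counts in Control and 1802 and 1376 in DMHCA samples, a log2 fold change of 0.86 ± 0.29 (SE). The study does not state whether strand was used in counting, so reads from the shared bases cannot be assigned to either gene. No window of 100 bases in the Echs1 transcript was found in the transcripts of another gene.

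The chromosomes differed in how many of their genes were higher with DMHCA. Of the 1541 tested genes of chromosome 7 32.1% were higher in both DMHCA samples than in every Control sample and 6.62% were lower, against 13.8% and 12.2% of all genes, and its median log2 fold change was 0.36. Chromosome 2, which carries Crat and Phyh, had 28.5% higher and 7.79% lower (median 0.20), and chromosome 15, which carries Cpt1b, 22.3% and 8.11% (median 0.18). Within 1 Mb of Echs1, 7 of 40 tested genes were higher in both DMHCA samples, and within 1 Mb of Pex11a, also on chromosome 7, 21 of 49. The counts were 32 of 98 around Cpt1c, 3 of 33 around Etfb and 18 of 65 around Ech1. Of the 40 genes around Echs1, 21 were highest in DMHCA 1 and 3, as Echs1 was, against 19.5% of all genes. As many, 21, were lowest in Control 2, as Echs1 was, against 24.7%. Counts of neighbors sharing a gene's own highest and lowest sample were 31 and 30 of 49 for Pex11a and 6 and 26 of 98 for Cpt1c. They were 11 and 19 of 33 for Etfb and 17 and 30 of 65 for Ech1. The other members on chromosome 7 were Cpt1c, Etfb and Ech1, with log2 fold changes of -1.01, 0.37 and 0.07. Chromosome 9, which carries Slc25a20, Etfa, Acaa1a and Acaa1b, had the lowest median of any chromosome, -0.28, and all 4 members on it had estimates under 0, from -0.37 to -0.09. The chromosomes were compared after the values were seen, and their part in the results of single genes was not tested.

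The promoter of Echs1, from 250 bases before the start site to 50 after it, is shown because this gene had the smallest p. It was taken from RefSeq (GRCm38.p6, chr7:140116372-140116671, minus strand), and the capitals mark a match to the direct repeat DR1, the kind of element that PPAR and RXR bind, 83 bases before the start site.

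Echs1: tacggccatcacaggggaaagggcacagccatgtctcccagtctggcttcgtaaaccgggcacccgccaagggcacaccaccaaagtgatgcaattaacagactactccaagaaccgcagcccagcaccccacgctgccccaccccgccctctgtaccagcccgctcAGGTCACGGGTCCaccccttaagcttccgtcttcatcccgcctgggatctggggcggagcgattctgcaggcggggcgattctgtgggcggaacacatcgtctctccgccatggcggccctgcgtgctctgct

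Promoters of 31 of the 36 genes were at hand, in 32 windows of 300 bases. DR1 was searched as AGGTCANAGGTCA on both strands with at most 2 mismatches, and 4 of the 32 windows held it, against 3.86% of 32851 mouse promoters. The 4 matches are given below by gene, with the whole match in capitals.

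Echs1: AGGTCACGGGTCC
Slc25a20: AGGTGAAAGGTCG
Acox2: AGGACAGAGGTGA
Etfa: TTACCTTTGCCCT

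All 4 had 2 mismatches, and the Etfa match reads on the opposite strand. None of these genes apart from Echs1 had a p under 0.05. The direct repeat DR4, which LXR and RXR bind, was searched as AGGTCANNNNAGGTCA in the same way and was found in 1 window, that of Acadvl (GGATCACCCTAGGTCA, 97 bases before the start site), against 3.02% of all promoters. A match of letters is a description of the window and not a site of binding.

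The first enzymes of the carnitine shuttle differed in level by gene. Cpt1a, the liver-type carnitine palmitoyltransferase 1 that commits long-chain acyl groups to the mitochondrion, was at 11.3 ± 3.99 TPM (SD, n = 3) in Control and 13.5 ± 2.62 TPM (SD, n = 2) in DMHCA samples. Its normalized counts were 2680, 1724 and 2477 in Control and 2967 and 2048 in DMHCA samples. The groups overlapped, and the log2 fold change was 0.13 ± 0.31 (SE), with a 95% interval from -0.62 to 0.87. Cpt1c, the brain-type form with little transferase activity, had 583, 284 and 424 normalized counts in Control and 263 and 165 in DMHCA samples. Both DMHCA samples were thus the lowest, but Control 2 was close to the higher of them. The log2 fold change of Cpt1c was -1.01 ± 0.52 (SE; unadjusted p = 0.0976, adjusted p = 0.648), and its level was 3.45 ± 1.51 TPM in Control and 1.91 ± 0.43 TPM in DMHCA samples. On the TPM scale Control 2 (1.90) lay between DMHCA 2 (1.60) and the other DMHCA libraries (2.20 and 2.22), so the groups overlapped there.

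Cpt1b, the muscle-type form, was the lowest of the 36 genes by TPM, with 1.07 ± 0.18 TPM (SD, n = 3) in Control and 1.29 ± 0.40 TPM (SD, n = 2) in DMHCA samples. It had 79.7, 172 and 147 normalized counts in Control and 175 and 99.6 in DMHCA samples, with a log2 fold change of 0.05 ± 0.58 (SE). Its value is uncertain, since 91.1% of the 100-base windows of its transcript also occur in Gm44502, a gene on the same strand that overlaps it, which itself had 160, 46.7 and 7.79 normalized counts in Control and 49.4 and 60.7 in DMHCA samples. Control 1 was thus lowest for Cpt1b and highest for Gm44502.

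Cpt2, which turns acylcarnitines back into acyl-CoA inside the mitochondrion, had 1001, 1257 and 1776 normalized counts in Control and 1441 and 1263 in DMHCA samples. Both DMHCA samples lay inside the range of the controls, and the log2 fold change was 0.01 ± 0.34 (SE). Slc25a20, the carnitine-acylcarnitine carrier of the inner membrane, had 1144 to 1657 normalized counts in Control and 1572 and 823 in DMHCA samples, with DMHCA 2 the lowest sample. Crat, which forms acetylcarnitine, ran from 1828 to 2877 in Control and from 2802 to 3032 in DMHCA samples. Crot, the peroxisomal carnitine octanoyltransferase, was set apart by 1 sample: it had 6636, 6620 and 2925 normalized counts in Control, 3727 in DMHCA 1 and 3, and 16044 in DMHCA 2. Of 15 tested genes within 1 Mb of Crot, 3 were highest in DMHCA 2, against 22.0% of all genes. Over the 7 shuttle genes 5 were higher and 2 lower, with a median log2 fold change of 0.05.

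**Figure D2:**
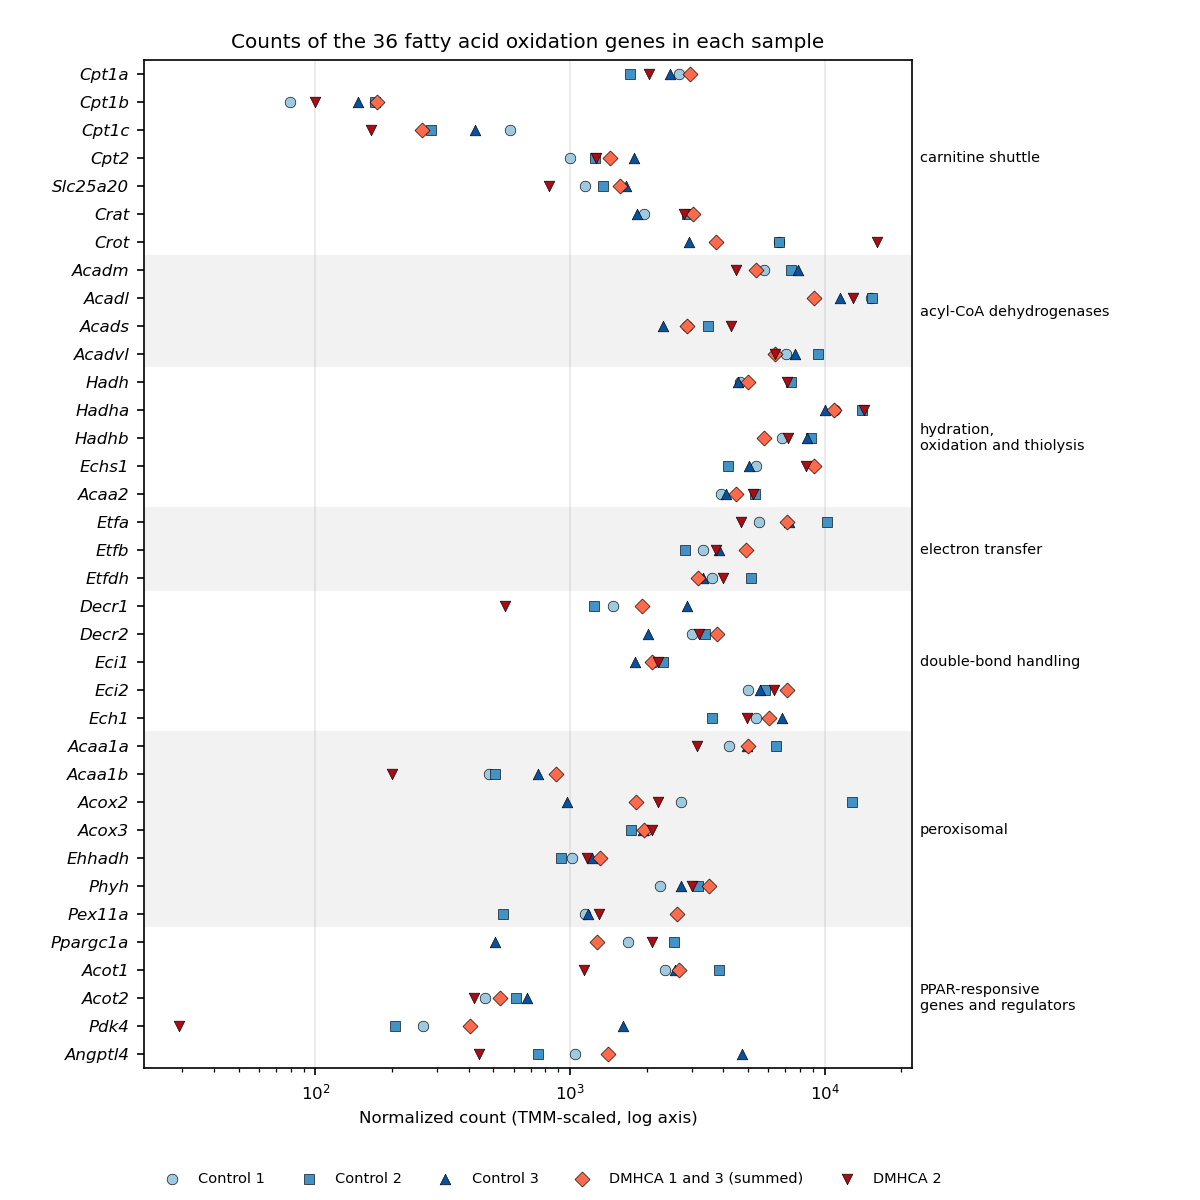
Normalized counts of the 36 genes in the 5 samples on a log axis, grouped by role, with blue symbols for Control and red symbols for DMHCA. Most genes hold their 5 symbols close together, Echs1 has both red symbols to the right of the blue ones, and Crot, Acox2, Pdk4 and Angptl4 each have a sample far from the rest.

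Of the acyl-CoA dehydrogenases, which take the first hydrogens from acyl chains of different length, 3 of 4 had estimates under 0 and the median log2 fold change was -0.34. Acadm, the medium-chain enzyme, had 5759, 7397 and 7824 normalized counts in Control and 5360 and 4494 in DMHCA samples. Acadvl, the very-long-chain enzyme, had 7029, 9394 and 7638 in Control and 6359 and 6404 in DMHCA samples. Both genes were lowest in the DMHCA samples, but by margins that were small beside the spread between controls. The log2 fold change was -0.51 ± 0.27 (SE; unadjusted p = 0.103) for Acadm and -0.33 ± 0.26 (SE; unadjusted p = 0.245) for Acadvl, and the latter was -0.22 without Control 2. Of the exonic bases of Acadvl 42.9% lie opposite exons of Dvl2, a Wnt signaling gene whose log2 fold change was 0.38 ± 0.29 (SE). Acadl, the long-chain enzyme, was the highest of the 36 genes by mean TPM over the 5 samples, at 155 ± 30.8 TPM (SD, n = 3) in Control and 141 ± 43.9 TPM (SD, n = 2) in DMHCA samples. It had 15159, 15278 and 11473 normalized counts in Control and 9063 and 12943 in DMHCA samples, with a log2 fold change of -0.34 ± 0.30 (SE), which was -0.61 without DMHCA 2. The groups of Acadl overlapped, since DMHCA 2 was above Control 3, and among the DMHCA samples the mean of Etfb (146 TPM) was above that of Acadl. Acads, the short-chain enzyme, ran from 2320 to 3467 in Control and from 2890 to 4266 in DMHCA samples.

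**Figure D3:**
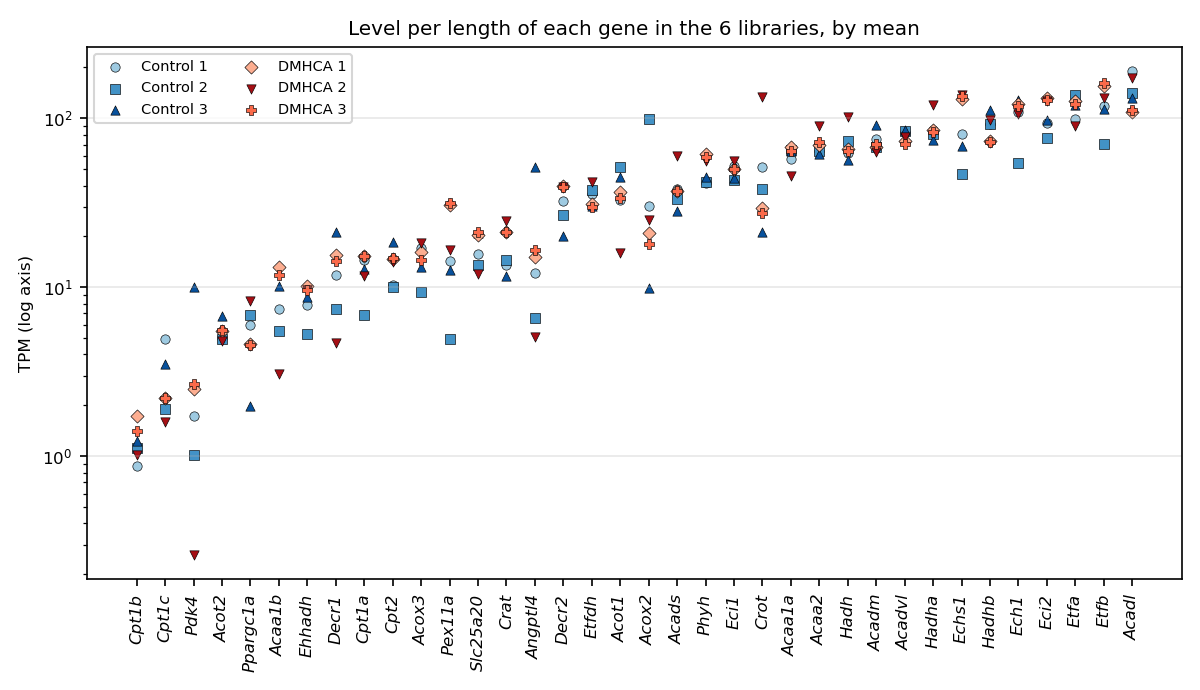
TPM of the 36 genes in each of the 6 libraries on a log axis, ordered by mean, with blue symbols for Control and red symbols for DMHCA libraries. Cpt1b, near 1 TPM, is the lowest gene by mean and Acadl, above 100 TPM in every library, the highest, and the symbols of DMHCA 1 and 3 nearly coincide.

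Hadha and Hadhb encode the alpha and beta subunits of the mitochondrial trifunctional protein, which carries out the last steps of the cycle on long chains. Hadha had 10989, 14006 and 10016 normalized counts in Control and 10829 and 14313 in DMHCA samples, with a log2 fold change of 0.11 ± 0.29 (SE). Hadhb had 6794 to 8858 in Control and 5772 and 7163 in DMHCA samples. Neither subunit separated the groups in counts. The ratio of Hadhb to Hadha in TPM was 1.08, 1.15 and 1.50 in Control 1, 2 and 3 and 0.862, 0.820 and 0.876 in DMHCA 1, 2 and 3, so that every DMHCA library was below every Control library. This ratio was computed after the values were seen and was not tested.

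Both genes are read outward from 1 stretch of promoter, which is shown for this ratio, on chromosome 5 (GRCm38.p6). Their RefSeq start sites have 272 bases between them, with Hadha on the minus and Hadhb on the plus strand, and their 300-base windows share 228 bases. The window of Hadha (chr5:30154931-30155230, minus strand) held no match to DR1 or DR4 with at most 2 mismatches, and so it is printed without capitals.

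Hadha: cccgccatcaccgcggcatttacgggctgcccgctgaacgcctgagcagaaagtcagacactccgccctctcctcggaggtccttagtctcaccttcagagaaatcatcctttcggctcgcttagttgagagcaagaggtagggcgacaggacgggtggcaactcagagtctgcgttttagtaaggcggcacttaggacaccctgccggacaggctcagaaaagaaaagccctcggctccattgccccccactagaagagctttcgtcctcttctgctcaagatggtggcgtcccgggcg

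The other genes of these steps stayed within the range of their controls in counts, but not in TPM. Hadh, the hydroxyacyl-CoA dehydrogenase of medium and short chains, ran from 4577 to 7355 normalized counts in Control and from 4998 to 7102 in DMHCA samples. Acaa2, a mitochondrial thiolase, ran from 3901 to 5323 and from 4490 to 5211, whereas its TPM was 61.5 to 64.2 in Control and 69.9 to 90.2 in DMHCA libraries. In TPM Hadh was also above every Control library in DMHCA 2 (101 against 56.7 to 73.3). With Echs1 included, 4 of the 5 genes of hydration, oxidation and thiolysis had estimates above 0 and the median log2 fold change was 0.13.

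The electron-transferring flavoprotein passes electrons from the dehydrogenases to the respiratory chain. Its alpha subunit gene Etfa ran from 5507 to 10191 normalized counts in Control and from 4696 to 7098 in DMHCA samples, and its oxidoreductase gene Etfdh from 3331 to 5133 and from 3166 to 3994. For Etfb, the beta subunit, the ranges were 2814 to 3841 and 3731 to 4886, but 65.2% of the 100-base windows of its transcript are shared with Gm45233, which overlaps it on the same strand. The groups overlapped for all 3 genes in counts, though in TPM Etfb was higher in every DMHCA library (132 to 162) than in every Control library (70.9 to 118). The median log2 fold change was -0.17 in counts but 0.05 in TPM, where Etfdh took the other sign.

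Unsaturated chains need isomerases and reductases before they can be oxidized. Eci2, an enoyl-CoA isomerase found in peroxisomes and mitochondria, had 4996, 5804 and 5582 normalized counts in Control and 7110 and 6318 in DMHCA samples. Both DMHCA samples were above the controls, with a log2 fold change of 0.30 ± 0.24 (SE; unadjusted p = 0.249). Its level was 89.3 ± 10.9 TPM (SD, n = 3) in Control and 128 ± 3.42 TPM (SD, n = 2) in DMHCA samples. Eci1, the mitochondrial isomerase, was among the steadiest of the 36 genes, from 1804 to 2326 normalized counts in Control and from 2090 to 2217 in DMHCA samples. Ech1, a dienoyl-CoA isomerase, ran from 3604 to 6803 and from 4970 to 6043, and Decr2, the peroxisomal dienoyl-CoA reductase, from 2015 to 3375 and from 3217 to 3774. Decr1, the mitochondrial reductase, had 1245 to 2882 in Control and 1909 in DMHCA 1 and 3 but 556 in DMHCA 2.

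Of the members grouped as peroxisomal, only Pex11a separated the groups in counts, while Eci2, also found in peroxisomes, was grouped with double-bond handling. Pex11a encodes a membrane protein of peroxisome division that PPARalpha agonists raise in liver. Its normalized counts were 1146, 546 and 1180 in Control and 2632 and 1300 in DMHCA samples, so both DMHCA samples were higher, DMHCA 2 by a small margin over Control 3. The log2 fold change was 1.04 ± 0.47 (SE), or 2.05-fold, with an unadjusted p of 0.0635 and an adjusted p of 0.644 by edgeR, and DESeq2 on the 6 libraries gave an adjusted p of 0.104. The levels were 10.6 ± 5.02 TPM (SD, n = 3) in Control and 23.9 ± 10.3 TPM (SD, n = 2) in DMHCA samples.

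Ehhadh, the bifunctional enzyme of peroxisomal beta-oxidation and a PPARalpha target in liver, had 1018, 921 and 1216 normalized counts in Control and 1312 and 1167 in DMHCA samples. The groups overlapped in counts, with a log2 fold change of 0.24 ± 0.30 (SE), which was 0.13 without Control 2. Acox2, the oxidase of branched chains and bile acid intermediates, had 2714, 12755 and 976 in Control and 1813 and 2216 in DMHCA samples. Its log2 fold change of -1.44 ± 0.99 (SE) rested on Control 2 and was 0.11 without it. Acox3, another branched-chain oxidase, had the smallest spread of the 36, from 1742 to 2010 in Control and from 1950 to 2091 in DMHCA samples. Phyh, which starts the alpha-oxidation of phytanic acid, ran from 2262 to 3181 and from 2999 to 3498.

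The peroxisomal thiolases Acaa1a and Acaa1b are close copies that lie on the same chromosome and share 9.75% and 30.5% of their transcript windows with other genes, mostly with each other, so each is uncertain on its own. Acaa1a ran from 4205 to 6431 normalized counts in Control and from 3164 to 4987 in DMHCA samples. Acaa1b had 479 to 747 in Control, 885 in DMHCA 1 and 3 and 199 in DMHCA 2. Their sum gave a log2 fold change of -0.32 ± 0.34 (SE). Over the 7 peroxisomal members the median log2 fold change was 0.09, with 4 higher and 3 lower.

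The PPAR-responsive genes and regulators varied most. The median ratio of the highest to the lowest sample was 5.06 in this group, 1.81 over all 36 members, 2.398 over all genes tested, and 2.04 over genes with at least the mean count of the lowest member. Over the 36 genes the ratio was under 2 in 21 and over 5 in 6, which were Ppargc1a, Decr1, Crot, Angptl4, Acox2 and Pdk4. Pdk4, the kinase that blocks pyruvate dehydrogenase when fat is burned, had the widest range, 55.4-fold.

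Pdk4 had 264, 206 and 1616 normalized counts in Control and 404 and 29.1 in DMHCA samples. Control 3 was the highest and DMHCA 2 the lowest sample, and the others lay between 206 and 404. The log2 fold change was -1.68 ± 1.32 (SE), and it was -0.11 without Control 3. Angptl4, a secreted inhibitor of lipoprotein lipase and a classical PPAR target, had 1045, 751 and 4721 in Control and 1409 and 438 in DMHCA samples, the same order of the 2 extremes as Pdk4. Its log2 fold change was -1.23 ± 0.91 (SE), and it was 0.04 without Control 3. Control 3 was also the library with the most adipocyte markers (1292 TPM against 82.0 to 315 in the other 5), and their part in both values was not tested.

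**Figure D4:**
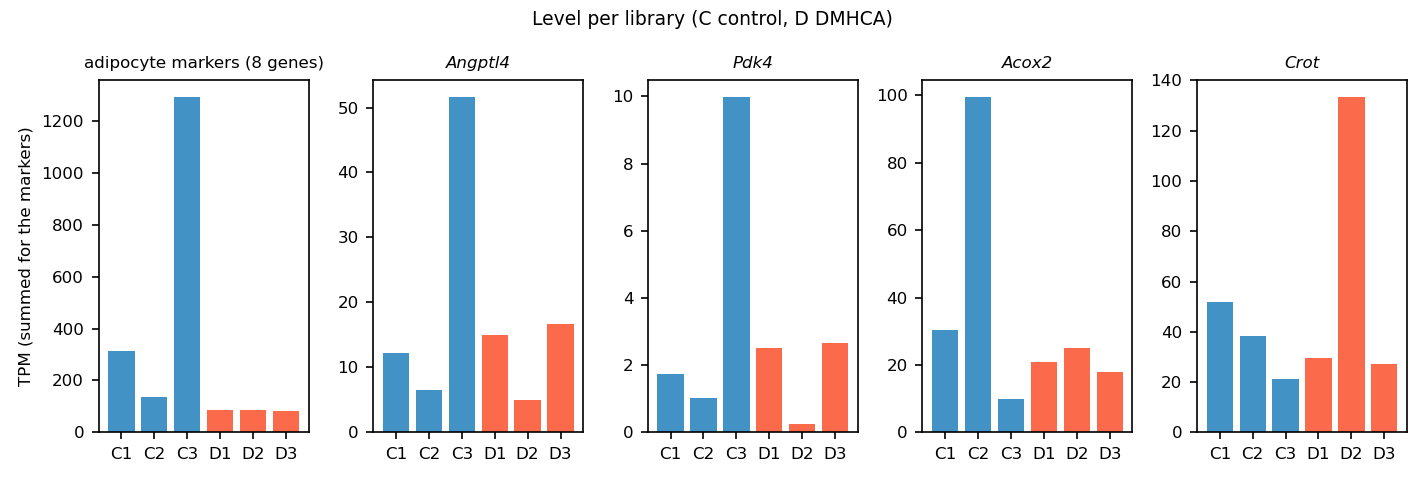
TPM in each of the 6 libraries (C1 to C3 Control in blue, D1 to D3 DMHCA in red) for the sum of 8 adipocyte marker genes and for Angptl4, Pdk4, Acox2 and Crot, each panel with its own axis from 0. Control 3 is highest for the markers, Angptl4 (51.6 TPM) and Pdk4 (9.99 TPM), Control 2 for Acox2 (99.6 TPM), and DMHCA 2 for Crot (133 TPM).

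Ppargc1a encodes PGC-1alpha, the coactivator of mitochondrial genes. It had 1681, 2568 and 507 normalized counts in Control and 1276 and 2103 in DMHCA samples, and both DMHCA samples lay inside the range of the controls. The log2 fold change was 0.09 ± 0.64 (SE), with a 95% interval from -1.44 to 1.62. Control 3, highest for Pdk4 and Angptl4, was the lowest sample for Ppargc1a. The acyl-CoA thioesterases Acot1 and Acot2, of cytosol and mitochondria, are neighbors that share 12.5% and 17.1% of their transcript windows with other genes, and each other's reads may be mixed. Acot1 ran from 2368 to 3831 in Control, with 2688 in DMHCA 1 and 3 and 1131 in DMHCA 2, and Acot2 from 463 to 679 in Control and from 419 to 530 in DMHCA samples. Summed, they gave a log2 fold change of -0.56 ± 0.39 (SE). The median over the 5 genes was -0.62, with 1 higher and 4 lower.

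Each gene has a highest and a lowest sample, and these were counted over the members. DMHCA 2 was the lowest sample for 11 of the 36 genes, among them Decr1, Acaa1b, Acot1, Pdk4 and Angptl4, and the highest for 4. Control 2 was the highest for 12 genes, DMHCA 1 and 3 for 11, Control 3 for 8 and Control 1 for 1. Among all genes tested the highest sample was Control 2 in 24.5%, DMHCA 1 and 3 in 19.5%, Control 3 in 27.4%, Control 1 in 6.59% and DMHCA 2 in 22.0%, and DMHCA 2 was the lowest sample in 23.2%. DMHCA 2 also had the lowest skeletal muscle markers, 323 TPM against 808 to 1373 in the other 5 libraries, and their part was not tested.

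Summed over the 36 genes, the level was 1670, 1527 and 1653 TPM in Control 1, 2 and 3 and 1773, 1923 and 1757 TPM in DMHCA 1, 2 and 3, higher in all DMHCA than in all Control libraries. TPM shifted the background in the same direction. With limma on log2(TPM + 1) the median log2 fold change of all genes tested moved from -0.03 to 0.11, a shift of 0.14, and that of the 36 genes was 0.19, so that the members' median was 0.09 above that of all genes in TPM and 0.08 above it in counts. In counts without Control 1 this difference turned to -0.024. Of the 36 genes only Etfdh changed sign between counts and TPM. In TPM 9 members were higher (Crat, Echs1, Acaa2, Etfb, Decr2, Eci2, Ehhadh, Phyh and Pex11a) and 1 lower (Acadvl) without overlap of the groups, against 3 and 3 in counts, and among all genes tested 20.3% and 6.98%. The share of reads from the mitochondrial genome was 3.18%, 4.64% and 3.48% in Control and 2.27%, 2.66% and 2.29% in DMHCA libraries.

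Genes around the pathway were read for context. None of them had an adjusted p under 0.05 by edgeR, and a gene is said to have passed here at an unadjusted p under 0.05, as 7.61% of all genes tested did, and to separate the groups where its samples did not overlap, as did 13.8% (higher) and 12.2% (lower) of all genes. The lists are short, so that 1 gene is a large share of each. Of 14 tested genes of fatty acid uptake and activation none had a p under 0.05, and the groups separated for Slc27a4, a fatty acid transporter (higher), and Lpl, lipoprotein lipase (lower). Lpl had 4370, 3722 and 25679 normalized counts in Control and 3637 and 3034 in DMHCA samples. Control 3, its highest sample, also had the most adipocyte markers, whose part in its value was not tested. In the list on malonyl-CoA, the metabolite that holds CPT1 in check, 1 of 3 genes passed, Acacb, the acetyl-CoA carboxylase of the mitochondrial surface, with 806, 579 and 1303 normalized counts in Control and 1327 and 2767 in DMHCA samples (log2 fold change 1.19 ± 0.47 SE, adjusted p = 0.644 by edgeR). Acaca, the cytosolic carboxylase, also separated the groups, with 5109, 4351 and 8425 in Control and 8733 and 9175 in DMHCA samples. Of 5 genes of ketone body metabolism none passed. Of 8 further acyl-CoA dehydrogenases 1 passed, Acadsb, the short and branched chain enzyme, at a log2 fold change of 0.93, and the groups separated for this gene and for Ivd, of leucine breakdown, both higher.

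Among 13 further peroxisomal genes 11 were higher and 2 lower, where 48.0% of all genes were higher. The groups separated for 5 of the 13, all higher (Abcd3, Cat, Pex5, Pex14 and Pex19), against 13.8% of all genes, and 1 passed, against 7.61%. It was Pex5, the import receptor, with 6767, 5595 and 3418 normalized counts in Control and 7603 and 12728 in DMHCA samples. The median log2 fold change of the 13 was 0.35. Of 8 receptors and coactivators 1 passed, Ppard, with 2153, 2063 and 1473 in Control and 2937 and 3126 in DMHCA samples (log2 fold change 0.68 ± 0.27 SE, adjusted p = 0.644 by edgeR). Ppard, Esrra, Rxra and Nrf1 were higher in both DMHCA samples than in every Control sample, 4 of 8 against 13.8% of all genes. Ppara had at most 84.9 normalized counts in any sample, and its groups overlapped. Of 7 tested further PPAR-responsive genes 1 passed, Plin4, a lipid droplet protein of fat cells, with 756, 279 and 1452 in Control and 87.9 and 89.8 in DMHCA samples (log2 fold change -3.22 ± 0.78 SE, adjusted p = 0.644 by edgeR). Ucp3, an uncoupling protein of muscle, was lower in both DMHCA samples than in every Control sample, with 35.8, 38.7 and 515 in Control and 25.9 and 4.86 in DMHCA samples. Plin4 moved with the adipocyte markers of the same samples, whose part in its value was not tested.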

How the data were processed

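The authors checked reads with FastQC 0.11.9, trimmed them with Cutadapt 2.9, and aligned and counted them with RSEM 1.3.1 on a Bowtie2 2.4.1 index of the mouse genome (mm10). They deposited per gene the expected counts (19.6% to 23.5% of them not whole), TPM and FPKM. The deposited FPKM values were not used, and the deposited TPM values were used for levels between genes. The strand setting is not given in the sources used here. Expected counts were rounded and tested in edgeR 4.0.16 (R 4.3.3) with TMM scaling, filterByExpr (count minimum 10, total minimum 15) and quasi-likelihood F-tests, whose p-values were adjusted by Benjamini-Hochberg over 19427 genes. Standard errors were obtained by dividing each log2 fold change by the root of its F. DMHCA libraries 1 and 3 were summed: 18.2% of 13380 genes differed between them by a chi-square test, against 82.0% to 87.0% in other pairs. Alternatives were DESeq2 1.42.0, limma 3.58.1 on log2(TPM + 1), other filters and scalings, robust dispersions, a replicate block and each library left out. The fit was checked on simulated data with known changes, for their direction and median size only. How many of them passed the adjusted threshold is not reported here.

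Members and lists were chosen with earlier results of these data known. Per-sample values were given for members with an unadjusted p under 0.05, non-overlapping groups or a log2 change of at least 1, and for a fixed set of key genes, while Crot was added after its values were seen. In the wider lists, genes under 0.05 were named, and those that only separated the groups, the chromosomes and Ppara were named after their values were seen. Gene positions are from GENCODE release 21 (GRCm38), and shared sequence was counted in windows of 100 bases of its transcripts.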

Additional observations from a re-analysis of the deposited data

How the results depend on the processing

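With 2 DMHCA samples, of which 1 sums a pair of near-identical libraries, intervals were wide, and neither small nor large changes passed the adjusted threshold in edgeR. Scd1, at a log2 fold change of 2.87, and Cidec, at -5.07, both had an adjusted p of 0.644 by edgeR. The number of genes with an adjusted p under 0.05, 0 with edgeR on 5 samples (1478 at an unadjusted p under 0.05), was 246 with DESeq2 on 5 samples, 839 with DESeq2 on 6 libraries and 16 without a filter on low counts. The number of members with an unadjusted p under 0.05, 1 in the report, was 3 in edgeR on 6 libraries (8.33%, against 15.6% of all genes), without a filter (against 7.93%) and in limma on log2(TPM + 1) (against 7.29%), 4 in DESeq2 on 6 libraries (11.1%, against 10.3%), and 0 at a threshold of 0.01. Leaving out each library gave 1 to 2, with 2 (5.56%) without Control 3 and without DMHCA 2, against 5.35% and 4.45% of all genes. The number of members with non-overlapping groups, 6 in the report, was 10 in TPM (27.8%, against 27.3% of all genes), and 6 to 17 with each library left out (10 or 27.8% without Control 1, 12 or 33.3% without Control 2, 11 or 30.6% without Control 3 and 17 or 47.2% without DMHCA 2, against 37.5%, 42.7%, 34.6% and 51.9% of all genes). Without DMHCA 2 a single DMHCA sample is left, which is assumed to vary as the controls do. The members' median log2 fold change moved from 0.05 to between -0.079 (without Control 1) and 0.19 (TPM), and it was also under 0 with a stricter filter (-0.0059). Its difference from the median of all genes ran from -0.024 (without Control 1) to 0.27 (DESeq2 on 5 samples).

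The alternatives were computed in full for the 16 members given with per-sample values and fold changes. When single libraries were omitted, the log2 fold change of Cpt1a ran from -0.053 to 0.38, Cpt1b from -0.21 to 0.42, Cpt2 from -0.17 to 0.26, Hadha from -0.093 to 0.24, Acox2 from -1.94 to 0.11, Ppargc1a from -0.33 to 0.61 and Angptl4 from -1.65 to 0.042. That of Cpt2 was -0.059 under a stricter filter, and that of Ppargc1a -0.044 in edgeR and -0.035 in DESeq2 on 6 libraries. Among the other members, checked for sign in DESeq2 and TPM only, Acaa1b was 0.19 in DESeq2 on 6 libraries (-0.09 in the report), and Etfdh turned in TPM. That of Pdk4 ran from -2.12 to -0.11 and kept its sign, and so did those of Pex11a, from 0.75 to 1.47, Acadl, from -0.61 to -0.29, Acadvl, from -0.42 to -0.22, Ehhadh, from 0.13 to 0.35, Cpt1c, from -1.24 to -0.70, Acadm, from -0.63 to -0.37, and Eci2, from 0.23 to 0.39. The causes were not tested. The adjusted p of Echs1 passed 0.05 only in DESeq2 on 6 libraries, at a log2 fold change of 0.88.

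The study states no pairing of the same-numbered Control and DMHCA libraries. The correlations of their deviations from the group means were -0.047, 0.32 and 0.33. Control 1 correlated best with DMHCA 2 (0.075), Control 2 with DMHCA 2 and Control 3 with DMHCA 3. Because DMHCA 1 and 3 were nearly identical, these correlations cannot tell pairing from its absence. With the replicate number as a block, edgeR on 6 libraries gave 4 members with an unadjusted p under 0.05 (11.1%, against 17.2% of all genes) and 0 genes with an adjusted p under 0.05, against 3 and 0 without the block.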
